A study of Rattus norvegicus with 6 samples.

Results

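The mitochondrial genome of the rat was read out here through 37 genes, which are the rows placed on chromosome MT among the 34170 genes of the deposited expression table. They comprise 13 messenger RNAs, 2 ribosomal RNAs (rRNAs) and 22 transfer RNAs (tRNAs). All samples were retinas from Sprague-Dawley animals (an outbred stock of laboratory rat), all male and labelled WT in both groups. In the diabetic group, 3 rats had been injected intraperitoneally with streptozotocin, a toxin of the pancreatic beta cells, at 60 mg/kg after a 12 h fast, on 5 days in a row. The control group was 3 rats injected with the citrate buffer alone. A rat counted as diabetic when its blood glucose was over 16.7 mmol/L at 1 week after the injections. The sources used here do not give the age of the rats or the time of retina collection.

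The mitochondrial genome is a small circle of DNA, present in many copies per cell and transcribed from both strands into long precursors. In most places tRNAs lie between the longer genes, and their excision releases the messenger RNAs and rRNAs, most of which then receive a poly(A) tail. The messenger RNAs encode core subunits of the respiratory chain and of ATP synthase, while all other subunits, and the enzymes that transcribe, cut and stabilise mitochondrial RNA, are encoded in the nucleus. Photoreceptors pack mitochondria densely into their inner segments, and the retina is a tissue of high oxygen consumption.

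The table placed the 37 genes between bases 1 and 15415 of the chromosome, in a build that the sources used here do not name, and a gene covered 99.6% of these bases. The largest gap, 32 bases, lay between 2 tRNA genes. Of the 37 genes, 28 lay on the plus strand and 9 on the minus strand, and the minus strand held 8 of the 22 tRNAs and 1 messenger RNA, Mt-nd6. In 7 places neighbouring genes shared bases. Mt-atp8 (7758 to 7961) and Mt-atp6 (7919 to 8599) shared 43 bases, Mt-nd4l (9870 to 10166) and Mt-nd4 (10160 to 11537) shared 7, and Mt-nd5 (11736 to 13565) shared 23 with Mt-nd6 (13543 to 14061) on the opposite strand. The labels name no strand marking in the library kit, so reads from overlapping or opposite genes cannot be told apart. Each protein-coding gene is called 1 messenger RNA here, also where 2 genes share bases. Whether the genes of such a pair lie on 1 RNA molecule was not tested, so their levels are values per annotated gene. The nuclear genome also holds copies of mitochondrial segments, and the sources used here do not say how reads with several matches were assigned, so the level of each of the 37 genes is uncertain to that extent.

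Levels are in FPKM, which relates the fragments of a gene to its length and to the depth of its library. The fragments behind them could be rebuilt and summed to between 12417686 and 19115426 per library. All 20 markers of retinal neurons and glia reached 1 FPKM in every library. The summed level of the rod photoreceptor markers was 31683, 35600 and 34604 FPKM in controls 1 to 3, against 28431, 26553 and 30807 FPKM in diabetic rats 1 to 3. In FPKM as deposited the diabetic libraries were thus all below the control libraries. The summed Müller glia markers were likewise lower in all 3 diabetic retinas on that scale, at 1168, 937 and 803 FPKM against 1419, 1280 and 1234 FPKM. The FPKM summed over all genes was also lower in the diabetic libraries, at 476348, 467488 and 500107 against 521710, 552093 and 514771. Neither marker order was checked under other scalings. The summed lens markers were highest in control 3, at 171 FPKM against 8.32 to 24.7 FPKM in the others. The summed markers of the retinal pigment epithelium were 77.7, 65.6 and 34.7 FPKM in controls 1 to 3. In diabetic rats 1 to 3 they were 82.2, 34.0 and 35.3 FPKM. The part of these marker differences in the mitochondrial results was not tested. In bulk retina, fewer cells of a type, fewer mitochondria per cell and less RNA per mitochondrion cannot be told apart.

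Control 1 stood apart from the other libraries in its mitochondrial profile. It was the lowest of the 6 libraries in 7 of the 13 messenger RNAs and the highest in 4 others. Its mean absolute deviation from the gene means was 0.37 on the log2 scale, against 0.11 to 0.24 in the other 5 libraries. The log2 differences of the messenger RNAs and rRNAs that it moved by more than 1.5 times are therefore given with and without it.

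The mitochondrial share of the library did not separate the groups. The 37 genes supplied 4.60%, 4.75% and 4.72% of the fragments in controls 1 to 3, against 4.30%, 4.78% and 5.04% in diabetic rats 1 to 3. The group means were 4.69% ± 0.08 (SD, n = 3) in control and 4.70% ± 0.38 (SD, n = 3) in diabetic retinas. Both the lowest and the highest share were in diabetic libraries, and the control values lay between them. The Wilson 95% interval of a share was at most 0.0237 percentage points wide, counting error only, so counting error was small beside the spread among the diabetic rats. Per unit of gene length the same genes made up 8.53%, 8.96% and 9.26% of the summed FPKM in the control libraries and 8.68%, 9.86% and 10.1% in the diabetic libraries, and these ranges also overlapped.

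**Figure D1:**
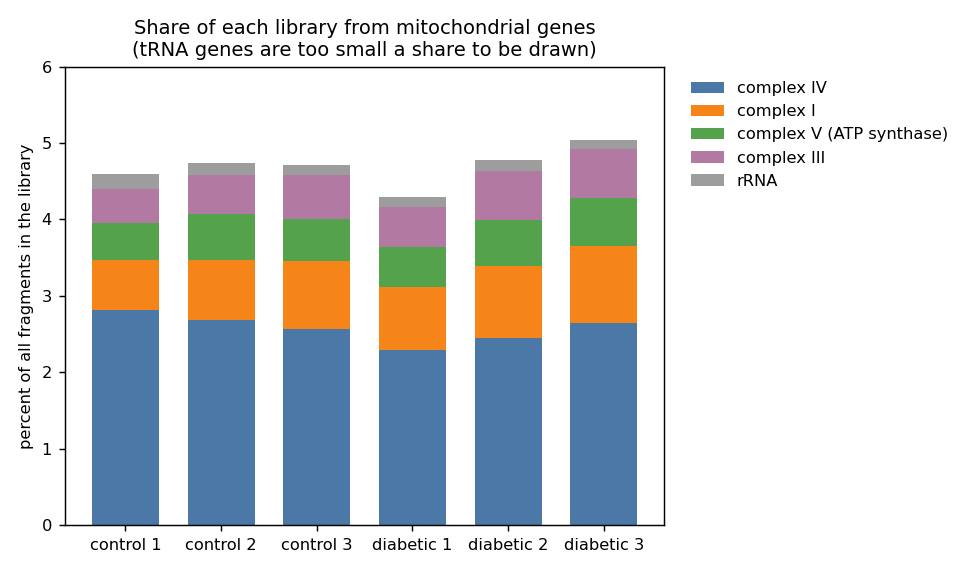
Percent of all fragments of each library that came from mitochondrial genes, stacked by the respiratory complex whose subunits the messenger RNAs encode and by rRNA, with 1 bar per rat. The total is between 4.30% and 5.04% in every library, and the part for complex IV takes up more than any other in each bar.

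Messenger RNAs made up nearly all of this share, with 4.16% to 4.92% of the fragments of a library. The rRNAs held 0.119% to 0.196% and the tRNAs 0.00351% to 0.00426%. Poly(A) selection was used for these libraries, which bears on rRNA and tRNA more than on messenger RNA, so the balance between these classes is that of the selected RNA and not of the tissue. Cytochrome c oxidase (complex IV) messages alone supplied 2.29% to 2.82% of all fragments. Complex I messages supplied 0.643% to 1.01%, the ATP synthase messages 0.485% to 0.618% and cytochrome b, the complex III message, 0.451% to 0.650%.

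The deposited FPKM values spanned 2 orders of magnitude from Mt-co1 to Mt-atp8. Mt-co1, the catalytic subunit of cytochrome c oxidase, had a mean over all libraries of 11312 FPKM and ranked between 2 and 5 among all genes of its library. Mt-co3, another subunit of that complex, ranked 3 or 4, and Mt-atp6, the proton channel subunit of ATP synthase, ranked 4 to 6. Cytochrome b (Mt-cyb) ranked 7 to 9, Mt-nd2 10 to 13 and Mt-nd1 13 to 17. At the lower end, Mt-nd4 ranked 229 to 427 and Mt-atp8 423 to 1608. Mt-nd4, with 189 ± 56.3 FPKM in control retinas (SD, n = 3), was far below Mt-nd4l, with which it shares bases. Mt-atp8, 204 bases long, shares 43 of them with Mt-atp6, which was also far above it. How reads from shared bases were assigned is not given, so the lower end of this span is uncertain.

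Only 4 steps in the order of the 15 messenger RNAs and rRNAs were wider than the spread over the 6 libraries. These were the steps from Mt-atp6 down to Mt-cyb, from Mt-cyb to Mt-nd2, from the longer rRNA to Mt-nd4 and from Mt-nd4 to Mt-atp8. The ranges of all other neighbours overlapped. Even so, Mt-co1 exceeded Mt-co3 in 5 of 6 libraries, while Mt-co2 exceeded its neighbour Mt-nd6 in only 2 of 6.

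**Figure D2:**
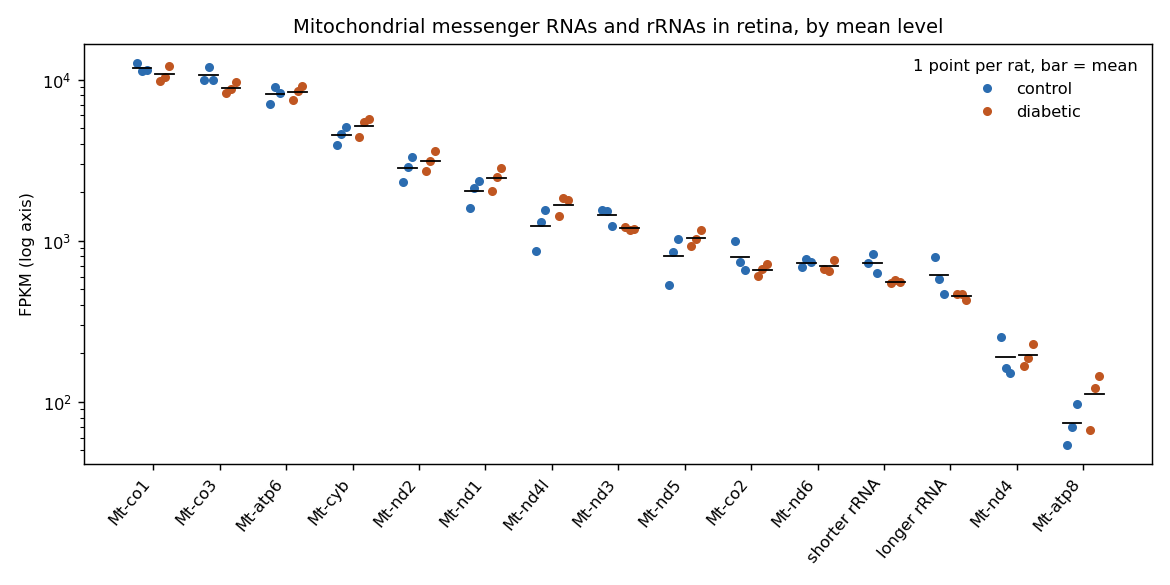
Level of each mitochondrial messenger RNA and rRNA in FPKM on a log axis, ordered by the mean over all libraries, with 1 point per rat and a bar at each group mean. The levels run from 12674 FPKM (Mt-co1 in control 1) to 54.4 FPKM (Mt-atp8 in control 1), and the groups lie close together beside this span.

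Differences between the groups were tested with limma on log2(FPKM + 0.5), fitted over all genes whose mean reached 0.5 FPKM, and every log2 difference below is diabetic minus control on that scale. Of the 37 mitochondrial genes, 32 were tested, namely all 13 messenger RNAs, both rRNAs and 17 tRNAs. None passed an adjusted p of 0.05, as none did among all 16363 genes tested (0%), and the lowest adjusted p of a mitochondrial gene by limma was 0.128. An unadjusted p below 0.05 was found for 4 mitochondrial genes, 1 rRNA and 3 tRNAs but 0 of 13 messenger RNAs, beside 19.9% of all genes. A second method, voom on the rebuilt fragments, passed 2 genes in all and none of these 32. It had 3 of the 13 messenger RNAs at an unadjusted p below 0.05, beside 3414 of all 16363 genes. Every mitochondrial difference given here is thus a value that did not pass the test.

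Among the 32 tested genes, 16 were lower and 16 higher in diabetic retinas, and 49.9% of all genes were lower. The groups did not overlap for 5 of the 32, beside 26.2% of all genes. Of these 5 genes, 4 were lower in all diabetic libraries, beside 13.6% of all genes. These shares are below or near those over all genes, with so few members that no more can be read from them. The median log2 difference of the 13 messenger RNAs was 0.07, and that of all genes tested 0.00034. Without control 1 it was 0.02. Scaling to TPM moved the median of all genes to 0.12 and that of the messenger RNAs to 0.20.

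**Figure D3:**
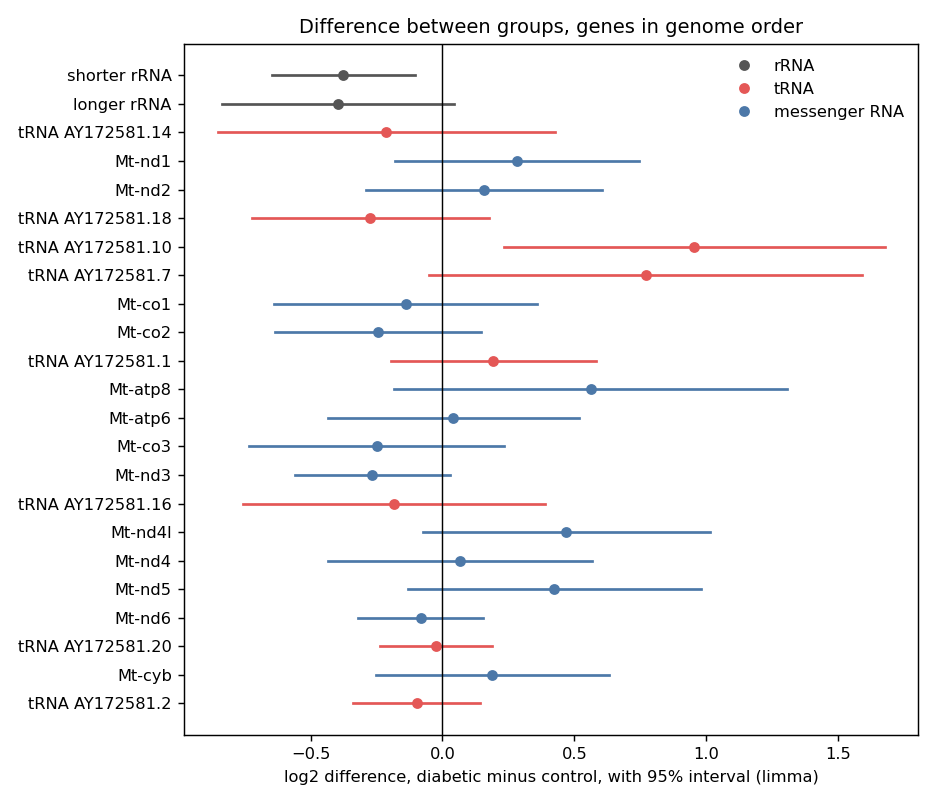
Log2 difference between diabetic and control retinas with its 95% interval from limma, in genome order. Drawn are the messenger RNAs, the rRNAs and the tRNA genes with a mean of at least 10 fragments. The other tested tRNA genes, among them AY172581.12 with the lowest adjusted p, are not drawn. No interval belongs to a gene that passed the adjusted threshold, and the messenger RNA values lie between -0.27 (Mt-nd3) and 0.56 (Mt-atp8).

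The 3 messages of complex IV had lower means in diabetic than in control retinas, with log2 differences between -0.25 and -0.14, although under quantile normalization all 3 were above 0. Mt-co1 (5323 to 6867) was measured at 12674, 11345 and 11502 FPKM in controls 1 to 3, against 9807, 10430.2 and 12115 FPKM in diabetic rats 1 to 3. Diabetic 3 lay within the control range and the groups overlapped, with a log2 difference of -0.14 (SE 0.21, adjusted p = 0.753 by limma) that was -0.09 without control 1. The sign of Mt-co1 also turned when libraries were scaled over the genes outside the mitochondrial genome (0.00895). Mt-co2 (7006 to 7689), which carries the copper centre that receives electrons from cytochrome c, gave 996, 735 and 660.1 FPKM in the controls, against 603, 669 and 719 FPKM in diabetic retinas. Its difference of -0.25 came largely from control 1 and was -0.07 without it.

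Mt-co3 (8599 to 9382) was the message of complex IV whose groups did not overlap. It stood at 9912, 12054 and 9966 FPKM in the controls, against 8320.5, 8806 and 9658 FPKM in diabetic libraries. The means were 10644 ± 1222 FPKM and 8928 ± 677 FPKM (SD, n = 3 each). Control 2 was well above the rest, and the highest diabetic value was just below the lowest control value. The log2 difference was -0.25 (95% interval -0.73 to 0.23, adjusted p = 0.535 by limma) and -0.30 without control 1, but -0.16 without control 2. The difference was -0.11 with TPM, where the groups overlapped, and -0.10 when scaled over the genes outside the mitochondrial genome. Under quantile normalization it was 0.03, but that setting replaces values by rank, and Mt-co3 ranked 3 or 4 in every library. Its size thus rests on the scaling, and its sign turned under quantile normalization alone.

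Cytochrome b, the electron-carrying core of complex III, was encoded by Mt-cyb (14136 to 15278). Its level was 3921, 4585 and 5098 FPKM in the controls, against 4384, 5462 and 5669 FPKM in diabetic retinas. The groups overlapped through diabetic 1, and the log2 difference of 0.19 (SE 0.19, adjusted p = 0.612 by limma) was 0.09 without control 1.

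Complex I, the NADH dehydrogenase that feeds electrons into the chain, has 7 mitochondrial messages. Of these, 5 had higher means in diabetic retinas and 2 lower, with log2 differences from -0.27 to 0.47. Of the lower ones, Mt-nd3 kept its sign under every alternative computed and Mt-nd6 did not. Mt-nd1 (2740 to 3694) was at 1596, 2132 and 2357 FPKM in the controls, against 2047, 2503 and 2818 FPKM in diabetic libraries. Mt-nd2 (3904 to 4942) was at 2302, 2877 and 3319 FPKM and at 2703, 3147 and 3582 FPKM. Both form part of the membrane arm through which protons are pumped, and in both control 1 was lowest and diabetic 3 highest. The log2 differences of 0.28 for Mt-nd1 and 0.16 for Mt-nd2 were 0.12 and 0.02 without control 1.

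Mt-nd4l and Mt-nd5, further subunits of that arm, had the same order of libraries at their lower end. Mt-nd4l gave 859.9, 1305 and 1558 FPKM in the controls, against 1422, 1833 and 1782 FPKM in diabetic libraries. Mt-nd5 gave 534, 848 and 1022 FPKM and 933, 1025 and 1171 FPKM. In both genes control 3 lay within the diabetic range and control 1 far below every other library. The log2 difference was 0.47 (95% interval -0.08 to 1.01, adjusted p = 0.307 by limma) for Mt-nd4l and 0.42 (-0.13 to 0.98, adjusted p = 0.362) for Mt-nd5. Leaving out control 1 brought them to 0.23 and 0.16.

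Mt-nd3 (9451 to 9798) had the lowest adjusted p of the 13 messages. Its level was 1542, 1541 and 1239 FPKM in the controls, against 1219.9, 1165 and 1191 FPKM in diabetic retinas, or 1441 ± 175 and 1192 ± 27.4 FPKM (SD, n = 3 each). The groups did not overlap, but control 3 was close to diabetic 1 and far from the other controls. The log2 difference was -0.27 (95% interval -0.56 to 0.03, adjusted p = 0.288 by limma) and -0.21 without control 1. Mt-nd3 was the only messenger RNA that was lower in diabetic retinas under every alternative computed, but the difference was -0.13 with TPM and -0.12 both with quantile normalization and when scaled over the genes outside the mitochondrial genome. Its groups overlapped under each of the 3 other scalings checked for overlap (TPM, the genes outside the mitochondrial genome and the mitochondrial messenger RNA total).

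Mt-nd4 and Mt-nd6 complete the set of complex I messages. Mt-nd4 gave 254, 162 and 151 FPKM in the controls, against 167, 186 and 230.2 FPKM in diabetic retinas, with a difference of 0.07 that was 0.30 without control 1. Control 1 was the highest library for Mt-nd4 and the lowest for its partner Mt-nd4l. Mt-nd6, the message of the minus strand, varied least in the control group, at 691, 769.9 and 739 FPKM, and was 672, 652 and 756 FPKM in diabetic retinas. Its log2 difference of -0.08 was -0.12 without control 1 and became 0.06 with TPM, so its direction rests on the scaling.

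The ATP synthase genes were Mt-atp6 and the very short Mt-atp8, which encodes a small subunit of the membrane part. They share 43 bases, and whether their values come from separate RNA molecules was not tested. Mt-atp6 was at 7069, 9039 and 8314 FPKM in the controls, against 7477, 8463 and 9138 FPKM in diabetic libraries. The groups overlapped widely, and the difference of 0.04 (SE 0.20, adjusted p = 0.930 by limma) was -0.06 without control 1. Mt-atp8 was at 54.4, 69.7 and 97.5 FPKM and at 67.2, 123 and 145 FPKM. Its log2 difference, 0.56 (95% interval -0.18 to 1.31, adjusted p = 0.367 by limma), was farthest from 0 among the messages and was 0.36 without control 1.

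The rRNAs of the mitochondrial ribosome were both lower in diabetic retinas under each setting that kept them in the fit, though neither passed the adjusted threshold. The shorter one (AY172581.9, 958 bases, 68 to 1025) belongs to the small ribosomal subunit. It was at 728, 823 and 632 FPKM in controls 1 to 3, against 545, 571 and 556 FPKM in diabetic rats 1 to 3. The groups did not overlap, and the diabetic libraries lay close together, at 557 ± 13.3 FPKM against 727 ± 95.6 FPKM (SD, n = 3 each). The log2 difference was -0.38 (95% interval -0.65 to -0.10, adjusted p = 0.168 by limma) and was -0.37 without control 1. It was nearer to 0 under other scalings, at -0.24 with TPM, -0.23 when scaled over the genes outside the mitochondrial genome, where the groups overlapped, and -0.11 with quantile normalization.

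The longer rRNA (AY172581.24, 1571 bases, 1094 to 2664) belongs to the large subunit. Its values were 796, 577 and 468 FPKM in the controls, against 469, 469.6 and 429 FPKM in diabetic libraries. Control 1 was far above all others, and control 3 was just below 2 of the diabetic values. The log2 difference of -0.39 (adjusted p = 0.290 by limma) was -0.19 without control 1. Summed over both genes, rRNA was 1341 ± 219 FPKM in control and 1013 ± 27.8 FPKM in diabetic retinas (SD, n = 3 each), with no overlap. As a share of all fragments, of mitochondrial fragments or of the summed FPKM, however, the rRNAs overlapped between the groups. As the rRNAs are measured after poly(A) selection, a difference in tail length or in carry-over cannot be told apart from one in amount.

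The tRNA genes, 60 to 75 bases long, were covered thinly. They held 3767 fragments in all 6 libraries together, and 11 of the 22 had a fragment in every library. In 13 of them no library had more than 7 fragments. A tRNA gene of 68 bases with 3 fragments would be at 2.32 to 3.65 FPKM, depending on the library. AY172581.17 had no fragment in any library, which allows up to 3 in 96118795 fragments (counting error only). The selected library fragments are longer than a tRNA, so what was counted here is RNA that reaches beyond it.

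Genes annotated on the minus strand held 87.2% of the tRNA fragments, 3285 against 482. As no strand marking is named for the libraries, the strand of the counted RNA is not known. The larger part lay with AY172581.2 (15348 to 15415, beyond Mt-cyb), which alone took 61.1% and at a mean of 350.8 FPKM exceeded the next tRNA gene 5.21 times. Its level was 377, 395 and 318 FPKM in the controls, against 326, 346 and 342 FPKM in diabetic libraries, and the diabetic values lay inside the control range. Its log2 difference was -0.10 (adjusted p = 0.634 by limma) and turned to 0.04 with TPM.

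A cluster of minus-strand tRNA genes lies between Mt-nd2 and Mt-co1. AY172581.18 (5081 to 5152) was at 72.5, 78.1 and 68.3 FPKM in the controls, against 43.8, 65.6 and 75.7 FPKM in diabetic libraries, with a difference of -0.27 that was -0.0477 without diabetic 1 and -0.44 without diabetic 3. Its neighbour AY172581.10 (5185 to 5252) was at 22.4, 46.2 and 33.3 FPKM in the controls, against 44.0, 82.5 and 70.8 FPKM in diabetic libraries, from 26, 38 and 29 and from 57, 95 and 91 fragments. The groups overlapped through control 2 and diabetic 1, and the log2 difference of 0.95 (95% interval 0.23 to 1.68, adjusted p = 0.176 by limma) did not pass the adjusted threshold. AY172581.7 (5256 to 5321), next to it, was at 9.78, 3.76 and 10.6 FPKM in the controls, against 11.9, 12.5 and 14.4 FPKM in diabetic libraries. Here the groups did not overlap, with a difference of 0.77 (adjusted p = 0.272 by limma) that was 0.33 without control 2, where 3 fragments were counted.

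Of the tRNA genes with a mean of at least 10 fragments, 4 others had groups that overlapped. AY172581.16 (9800 to 9867), between Mt-nd3 and Mt-nd4l, ranged from 19.3 to 37.9 FPKM over the 6 libraries, with a log2 difference of -0.18. AY172581.14 (2665 to 2739), behind the longer rRNA, ranged from 11.2 to 23.9 FPKM (-0.21). AY172581.1 (7693 to 7756), behind Mt-co2, ranged from 12.8 to 19.8 FPKM (0.19). AY172581.20 (14062 to 14130, minus strand), between Mt-nd6 and Mt-cyb, was nearly level at 13.6 to 15.6 FPKM (-0.02). Each of these differences changed sign when some single library was left out.

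The remaining tRNA differences with an unadjusted p below 0.05 rested on few fragments. AY172581.15 (3835 to 3903) held 9 fragments in control and 23 in diabetic libraries, a depth-scaled ratio of 2.02 with a counting interval of 0.899 to 4.95. AY172581.12 (6937 to 7004), just before Mt-co2, held 4, 2 and 3 fragments in controls 1 to 3, against 2, 1 and 1 in diabetic rats 1 to 3. Its ratio was 0.351 with a counting interval of 0.0789 to 1.26, although it had the lowest adjusted p of all mitochondrial genes by limma, 0.128. For both genes the counting interval includes equality.

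The deviations of single libraries ran through the genome in a shared pattern. In control 1, Mt-nd1, Mt-nd2, Mt-atp8, Mt-atp6, Mt-nd4l, Mt-nd5 and Mt-cyb were at their lowest of 6, and Mt-co1, Mt-co2, Mt-nd3, Mt-nd4 and the longer rRNA at their highest. In diabetic 3, 6 of these 7 genes, all but Mt-nd4l, were at their highest. Diabetic 1 was lowest for Mt-co1, Mt-co2 and Mt-co3. Messenger RNA deviations in control 1 ranged from -0.75 to 0.47 on the log2 scale, so neighbouring genes of 1 precursor strand stood apart in the same library.

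**Figure D4:**
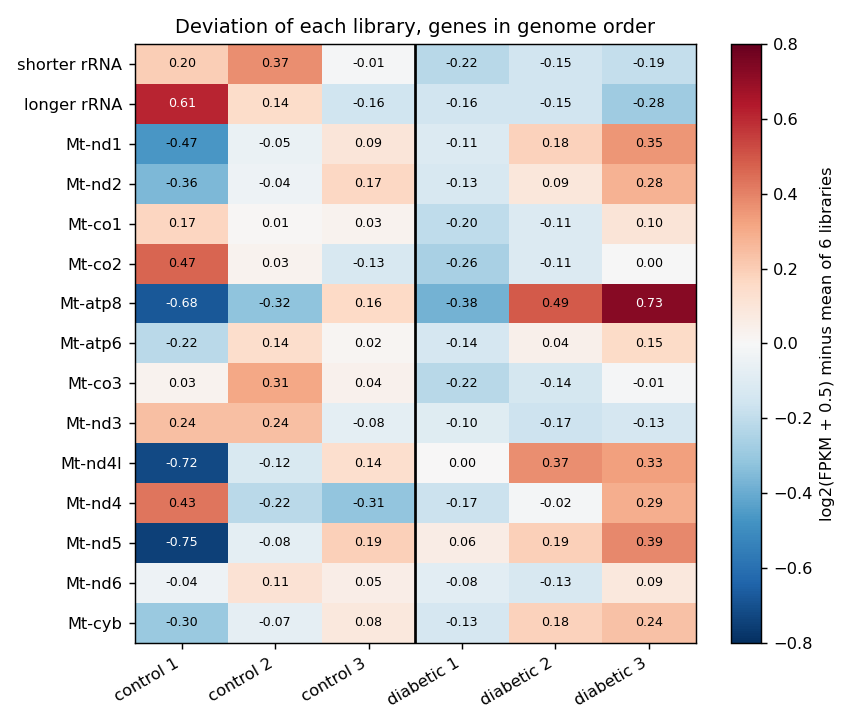
Log2 deviation of each library from the mean of the 6 libraries, for the mitochondrial messenger RNAs and rRNAs in genome order (1 row per gene, 1 column per rat). Control 1 has the widest deviations, from -0.75 (Mt-nd5) to 0.61 (the longer rRNA), and its low genes are the ones at their highest in diabetic 3, except Mt-nd4l.

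Some messages kept a nearly fixed ratio across the 6 retinas and others did not. Over all 78 pairs of messenger RNAs the median SD of the log2 ratio was 0.31. The ratio was steadiest for Mt-nd2 and Mt-cyb (SD 0.07), Mt-nd1 and Mt-nd2 (0.08) and Mt-nd4l and Mt-nd5 (0.09), genes that do not share bases. It varied most for Mt-atp8 against Mt-nd3 and against Mt-co2 (both 0.70). Of the genes that share bases, Mt-atp6 and Mt-co3, with 1 base in common, had an SD of 0.18, below that median. In other such pairs the ratio varied more, as Mt-atp6 exceeded Mt-atp8 between 63.0 and 130 times and Mt-nd4l exceeded Mt-nd4 between 3.39 and 10.3 times. These are ratios of values per annotated gene, and the assignment of reads from shared bases may enter them. On opposite strands, Mt-nd5 was between 0.773 and 1.57 times Mt-nd6. The coefficient of variation was larger in control than in diabetic retinas for 9 of 13 messages and for both rRNAs, and control 1 is among the 3 control libraries.

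Taken as a share of mitochondrial fragments, which does not depend on the size of the library, complex I messages made up 14.0%, 16.7% and 18.9% in controls 1 to 3, against 19.1%, 19.8% and 20.0% in diabetic rats 1 to 3. Complex IV messages made up 61.3%, 56.4% and 54.3% in the controls, against 53.4%, 51.1% and 52.5% in diabetic libraries. Neither share overlapped between the groups, and control 1 was the library farthest from the diabetic values in both. Without it, controls 2 and 3 still lay outside the diabetic range, but control 3 was close to the nearest diabetic library for both, and shares of 1 total are bound to move against each other. Cytochrome b, at 9.80%, 10.8% and 12.1% in the controls, against 12.1%, 13.6% and 12.7% in diabetic libraries, had its highest control share beside its lowest diabetic share. Within the messenger RNA fragments, Mt-nd1, Mt-nd4l and Mt-nd5 were higher and Mt-co3 lower in all diabetic libraries. With the values as deposited, none of the 13 messages was higher in all diabetic libraries, so the higher part of this pattern is one of composition. Mt-co3 was lower in all diabetic libraries with the deposited values too. The share of all genes without overlap was not computed for this scaling.

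The nuclear partners of these subunits were mostly lower in diabetic retinas. Of 72 tested nuclear genes for complexes I, III and IV and ATP synthase, 70 had lower values in diabetic retinas, 54 of them at an unadjusted p below 0.05 but none past the adjusted threshold by limma. Over all genes tested, 49.9% were lower, and 10.7% were lower at an unadjusted p below 0.05. The exceptions were Cox6b2, at 2.25, 2.29 and 1.16 FPKM against 1.68, 2.14 and 3.04 FPKM, and Ndufa1, whose mean rests on the 65.4 FPKM of diabetic 1, since no other library exceeded 1.46 FPKM. The median log2 difference was -0.36, beside 0.07 for the 13 mitochondrial messages. By complex the nuclear median was -0.35 over 34 genes of complex I, -0.52 over 9 of complex III, -0.38 over 13 of complex IV and -0.36 over 16 of ATP synthase. With TPM the nuclear median was -0.22, with 69 of 72 lower, beside 0.20 for the mitochondrial messages. These nuclear genes are short, with a median length of 693.5 bases, and removing a trend with gene length from each library brought their median to -0.25 and that of the messages to 0.18. The summed rod markers were lower in all diabetic libraries too, in FPKM as deposited. That order was not checked under other scalings, and the part of the rod markers in the differences of this list was not tested.

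**Figure D5:**
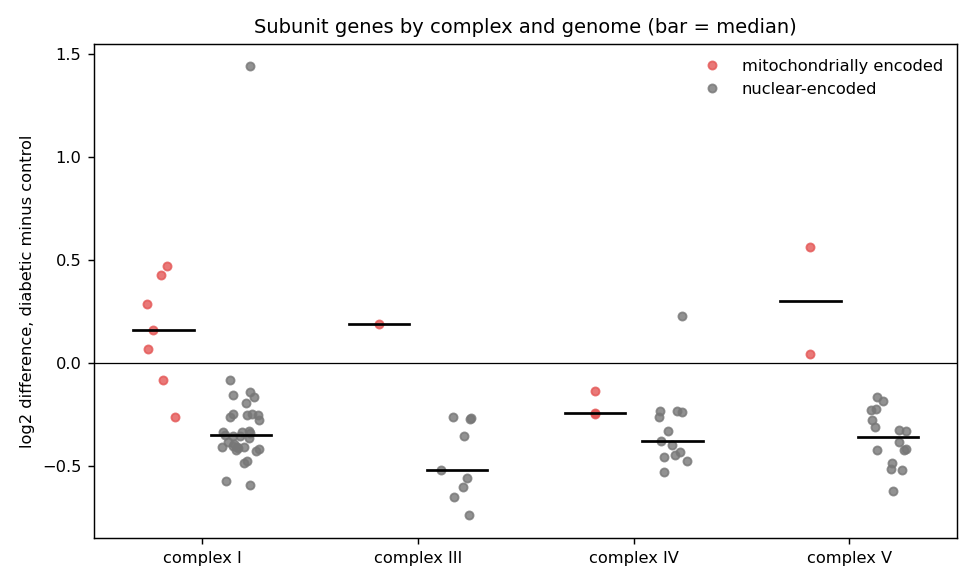
Log2 difference, diabetic minus control, of the nuclear and the mitochondrial subunit genes of each complex (complex V is ATP synthase), with 1 point per gene and a bar at the median. Nuclear medians lie between -0.52 and -0.35, and the mitochondrial values lie between -0.27 and 0.56, with those for complex IV below 0 as deposited but above 0 under quantile normalization.

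The nuclear subunits named next were picked for the smallest p of their complex without overlap. Their differences are thus farther from 0 than the median of -0.36 over the 72 genes. Uqcr11, a small subunit of complex III, was at 130, 153 and 112 FPKM in the controls, against 91.5, 85.3 and 81.1 FPKM in diabetic libraries (log2 -0.60, adjusted p = 0.128 by limma). Atp5mc1, which encodes a copy of the rotating ring subunit of ATP synthase, was at 123, 121 and 111 FPKM and at 86.2, 75.7 and 84.8 FPKM (log2 -0.52, adjusted p = 0.127). Cox8a, a small subunit of complex IV, was at 552, 604 and 478 FPKM and at 413, 402 and 417 FPKM (log2 -0.40). All diabetic libraries were below all control libraries in each of these genes, which was a condition of naming them. Over the 72 genes the groups did not overlap for 51, beside 26.2% of all genes. The ratio of summed mitochondrial to summed nuclear FPKM was 2.01, 2.28 and 3.19 in control and 2.95, 3.76 and 3.86 in diabetic libraries for complex I, and for complex IV 6.10, 5.59 and 6.88 against 6.65, 7.24 and 7.59. These ratios overlapped through control 3.

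The nuclear genes that act on mitochondrial DNA and RNA showed no common direction. Over 48 tested genes for transcription, replication, RNA processing, RNA stability and the control of biogenesis, 17 were higher and 31 lower, with a median log2 difference of -0.08. None passed the adjusted threshold by limma, and 4 were higher and 9 lower at an unadjusted p below 0.05, beside 9.15% and 10.7% of all genes. With TPM, 18 of the 48 were lower and the median was 0.05. Polrmt, the mitochondrial RNA polymerase, was at 14.0, 14.2 and 16.9 FPKM in the controls, against 13.0, 15.1 and 14.9 FPKM in diabetic libraries, and its groups overlapped. Tfam, which packages the genome and starts transcription, overlapped as well, at 20.4, 24.4 and 17.1 FPKM against 21.1, 18.9 and 16.3 FPKM.

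The groups did not overlap for 18 of the 48 genes, beside 26.2% of all genes. Of these 18, Ppargc1a, Ppargc1b, Rrm2b, Top1mt and Tfb1m were higher in all diabetic libraries and the rest lower. Rexo2 (log2 -0.55), Ptcd2 (-0.44) and Tbrg4 (-0.38), all lower, were nearest to the threshold, each with adjusted p = 0.128 by limma. Ppargc1a, a coactivator known for driving mitochondrial biogenesis, was at 7.48, 9.49 and 12.1 FPKM in the controls, against 14.8, 15.6 and 15.2 FPKM in diabetic libraries (log2 0.65, adjusted p = 0.139 by limma). Rrm2b, which supplies deoxynucleotides in resting cells, was at 8.91, 12.8 and 14.0 FPKM and at 18.0, 16.5 and 17.4 FPKM. In both genes control 1 was again the lowest library. Slirp, which with Lrpprc keeps mitochondrial messages stable, was at 5.62, 6.90 and 5.54 FPKM and at 4.25, 4.23 and 4.19 FPKM (log2 -0.46, adjusted p = 0.144 by limma). Lrpprc itself had a difference of 0.05 (adjusted p = 0.778 by limma). Tfb2m, the partner of the polymerase at promoters, was lower in all diabetic libraries (log2 -0.37) and Tfb1m, a methyltransferase of the small rRNA, higher in all of them (log2 0.24), again without passing the adjusted threshold.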

How the data were processed

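Poly(A) RNA of 6 retinas was made into paired-end libraries, per the labels' protocols. The submitters' processing notes name HISAT2 2.0.5, an aligner. For the counting tool, build and annotation the sources used here name nothing. The authors deposited FPKM per gene with gene length (in bases), coordinates and biotype, per the file headers. FPKM times length was a whole multiple of 1 step in 100% of values (tolerance 0.05 fragments), which gave the fragments used for shares and intervals (95%). Floors are 3 fragments and cover counting error only.

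Libraries were grouped by treatment. Genes whose mean reached 0.5 FPKM entered a limma 3.58.1 fit (R 4.3.3) of log2(FPKM + 0.5), with group as the only term, eBayes with trend, two-sided moderated tests, Benjamini-Hochberg adjustment over 16363 genes and a threshold of 0.05. Values are of separately weighed rats. Libraries of a group differed by more than sampling noise, with a chi-square of 10.0 or more for each degree of freedom. The limma functions were tested on simulated data. The members, the gene lists and the tests were chosen with earlier results of these data known. Named genes are all messenger RNAs and rRNAs, tRNA genes with a mean of at least 10 fragments or an unadjusted p below 0.05, and in nuclear lists genes of smallest p without overlap plus Tfam, Polrmt, Lrpprc and Ppargc1a. Others named were chosen after their values were seen. Alternatives were other pseudocounts, filters, scalings and limma settings, voom on rebuilt fragments, a replicate block and leaving out each library, and, added after seeing the data, scaling to the mitochondrial messenger RNA total. Figures were drawn with matplotlib 3.10.9.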

Additional observations from a re-analysis of the deposited data

How the results depend on the processing

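Under 21 alternatives no mitochondrial gene passed the adjusted threshold by limma, and the lowest adjusted p was 0.0603 (AY172581.9 without control 3). Over all genes voom on rebuilt fragments passed 2, and leaving out 1 library passed 0 to 4. The median of the messenger RNAs was -0.0259 to 0.17 when 1 library was left out, and its only negative value was without diabetic 3. Scaling moved directions. With TPM, Mt-nd6 was 0.0552, AY172581.20 0.11 and AY172581.2 0.0401. Scaled over genes outside the mitochondrial genome, Mt-co1 was 0.00895, Mt-nd6 0.0653, AY172581.20 0.12 and AY172581.2 0.0501. With quantile normalization, Mt-co1 was 0.13, Mt-co2 0.00659, Mt-co3 0.0348, Mt-nd6 0.18 and AY172581.2 0.13. With the length trend removed, Mt-nd6 was 0.0572. AY172581.20 was 0.0182 with voom and 0.00708 when scaled to the mitochondrial messenger RNA total. Left-out libraries also turned AY172581.20 (-0.0566 to 0.0400), AY172581.14 (-0.43 to 0.0248), AY172581.1 (-0.00318 to 0.30), Mt-atp6 (-0.0574 to 0.12), AY172581.16 (-0.37 to 0.0359) and Mt-nd4 (-0.0726 to 0.30). The cause was not tested. Of 25 genes followed, 14 kept their sign throughout. As a share of summed FPKM the mitochondrial genes were 8.92% in control and 9.55% in diabetic retinas, and without the rRNAs their share of fragments in control was 4.53%.

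With a replicate block 0 mitochondrial genes passed and the messenger RNA median was 0.07. Deviations of same-numbered rats correlated at -0.0541, -0.0756 and 0.000607, so the numbers do not pair the rats. Depth limits the tRNA genes, where few fragments were counted.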
